A study of Mus musculus with 24 samples.

Results

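Circular RNAs of 7 genes of the Polycomb and Trithorax systems of chromatin regulation were described across cardiac fibroblast libraries of mice with and without pressure overload. The members were every row of the authors' circular RNA table whose back-splice junction, which links a later exon's end with an earlier exon's start, had both ends at exon edges of Ezh2, Asxl1, Asxl2, Ash1l, Setbp1, Pbrm1 or Phf21a on the same strand. This gave 13 circular RNAs of 7 hosts, out of 1717 circular RNAs of 1175 hosts. The hosts were chosen by differences already seen between TAC and sham in these same libraries as well as by their role. The TAC and sham levels of the members are therefore given as a description, with no p-value. Where a member was called over the whole table, that is stated only to place it among the other circles.

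The libraries came from fibroblasts of male C57BL/6J mice operated at 8 weeks of age, with no other allele or agent named. TAC is transverse aortic constriction, a suture that narrows the aorta and loads the left ventricle with pressure, and sham is the control operation. TAC had 4 libraries at 1 week after surgery, 4 at 4 weeks and 3 at 8 weeks, and sham had 4, 5 and 4 at the same times. Total RNA was freed of ribosomal RNA and sequenced with strand kept. No sort or gate for fibroblasts is given in the sources used here, and the labels do not say that each library is a separate animal, so the spread between libraries may be partly technical.

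Polycomb proteins keep developmental genes silent through cell divisions, and Trithorax proteins work against them to keep genes active. Ezh2 is the histone H3 methyltransferase at the core of a Polycomb repressive complex. Asxl1 and Asxl2 are paralogous scaffold proteins that activate the deubiquitinase Bap1, which takes ubiquitin off histone H2A. Ash1l is a Trithorax histone methyltransferase, Pbrm1 is a bromodomain subunit of a SWI/SNF remodelling complex, Setbp1 is a nuclear protein that binds the oncoprotein SET, and Phf21a is a reader of unmethylated histone H3 in the complex of the demethylase Kdm1a. A circular RNA is made when a downstream splice donor joins an upstream acceptor, and having no free ends it is usually long-lived.

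Values are normalized junction reads. Each value counts the reads across 1 junction and was not divided by a length. After scaling, 1 read counted for between 0.642 and 1.57 of these units. The libraries held 3595 to 9146 junction reads, of which the 13 members took 1.45%. The 4-week TAC libraries were the deepest, with 7980 ± 940 reads (SD, n = 4) against 5666 ± 1188 in the 4-week sham libraries (n = 5). Of the fibroblast markers looked for, Dcn and Svep1 had circular RNAs in the table and the other 9 of 11, Pdgfra, Tcf21 and Col1a1 among them, had none. The fibroblast marker circles summed to 16.5 ± 4.44 normalized reads in TAC and 7.52 ± 4.00 in sham at 1 week, while 19 circles of 5 macrophage and other leukocyte genes summed to 111 ± 36.6 in TAC and 97.6 ± 52.0 in sham at that time. The libraries thus held circles of genes that mark several cell types, and in such bulk samples fewer cells of a type cannot be told apart from less RNA per cell.

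The sequences below show where each circle closes, because the junction is what tells one circle from another of the same host. Each line gives the last 15 bases before the back-splice in lower case and the first 15 bases after it in capitals, 5′ to 3′ in the sense of the host, read from GENCODE M21 transcripts on GRCm38, which is the build mm10 of the files. The exons between the ends follow the annotation and were not measured.
Ezh2 exons 2 to 15: cggggctctaaaaagAATAATCATGGGCCA
Ezh2 exons 2 and 3: cgcgggactagggagAATAATCATGGGCCA
Ezh2 exons 2 and 3, short exon 3: cacatcatgacttctAATAATCATGGGCCA
Asxl1 exons 2 to 4: cttttcacactcaagGTGTTAGAAAACTAC
Asxl2 exons 2 to 5: ggtggaaaaggaaagGTCTTAGAAAAATAC
Asxl2 exons 2 to 7: tacctgccaaacctgGTCTTAGAAAAATAC
Ash1l exons 4 and 5: agaaaacaataaaagGTTCCCAGTCAGCTT
Ash1l exons 8 to 10: tgactgcctaaatagGAAAGTATCTCAGAC
Ash1l exons 11 and 12: tgaaatgcagaaatgAATGATCTTTGCTGA
Pbrm1 exons 5 to 7: ctgccttccaaagtgAAATCAACCAGACTA
Phf21a exons 15 to 17: agcagttctataagtGGTGATATCCATGAG
The 3 Ezh2 circles open with the same bases and differ only before the join, as do the 2 Asxl2 circles. The paralogues Asxl1 and Asxl2 share 13 of the 15 bases after the join. The junctions of Setbp1 exon 2 and of Phf21a exons 2 to 6 are named here without sequence.

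**Figure D1:**
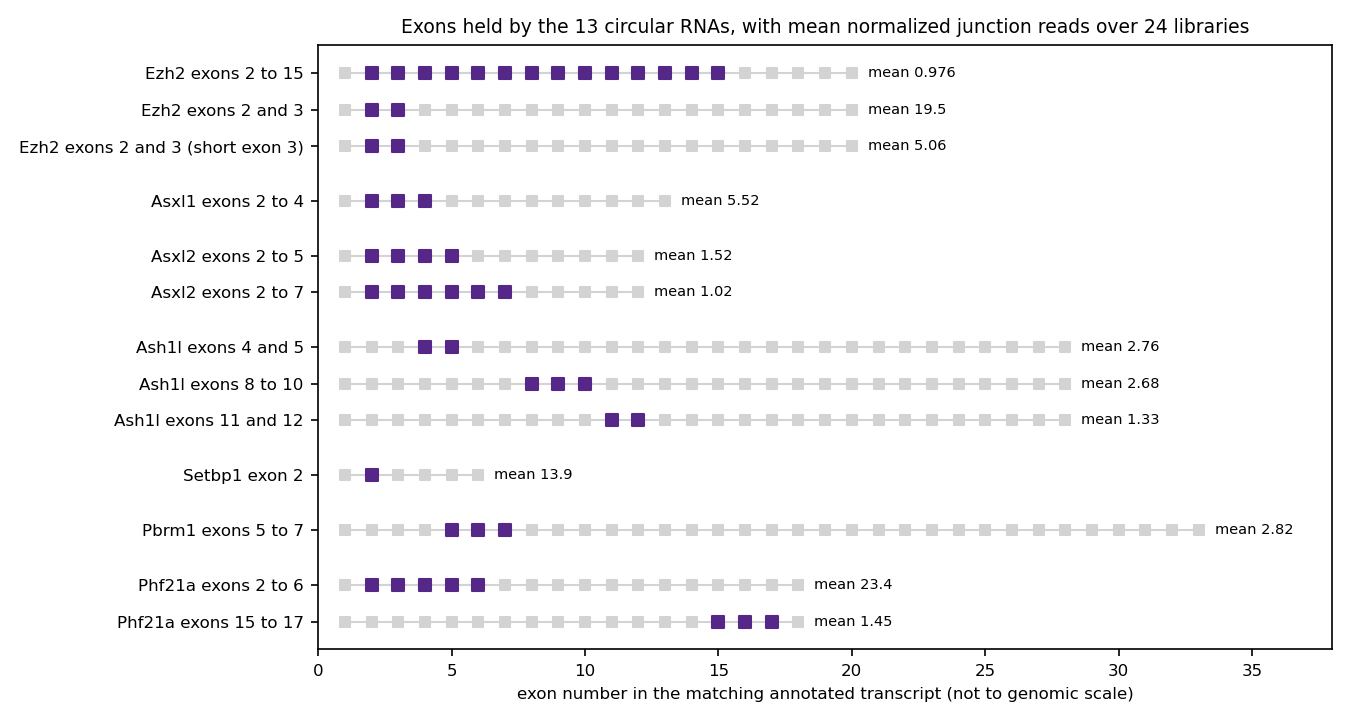
Exons of the annotated transcript (squares, numbered along the x axis, not to genomic scale) with those inside each of the 13 circles in purple and the mean normalized junction reads over 24 libraries at the right. The circles of Ezh2, Asxl1, Asxl2 and Setbp1 all start at exon 2, as does the most abundant circle of Phf21a, and the means run between 0.976 and 23.4.

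Most members began near the start of their hosts. Exon 2 was the first exon in 8 of 13 members (61.5%), against 606 of the 1657 circles of the table with a matched transcript (36.6%). The start codon lay inside 5 of 13 (38.5%), against 15.8% in the table, and the same 5 circles held untranslated bases, against 17.7%. A spliced length that is a multiple of 3, which would keep the reading frame on a second turn round the circle, was found in 5 of 13 (38.5%), near the 35.5% of the table. The median spliced length was 354 nt in members and 420 nt in the table, the median intron before the circle was 15261 bp in members and 11026 bp in the table, and both sets had a median of 3 exons. By genomic span, 5 members lay at or below the table's lower quartile of 2228 bp and 4 at or above its upper quartile of 13995 bp. These shares describe 13 circles that partly overlap one another and were not tested.

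Levels fell into a group of 3 well-read circles and a long scarce tail. Phf21a exons 2 to 6 had the highest mean over the 24 libraries at 23.4 ± 9.66 normalized reads (SD), the 18th highest level in the table, followed by Ezh2 exons 2 and 3 at 19.5 ± 11.7 and Setbp1 exon 2 at 13.9 ± 5.48. The spread of these 3 overlapped, with the Phf21a circle above the Ezh2 circle in 16 of 24 libraries and the Ezh2 circle above that of Setbp1 in 15. The step to the next was clearer, since Setbp1 exceeded Asxl1 in 22 of 24 libraries. Asxl1 exons 2 to 4 (5.52 ± 3.01) and the short Ezh2 form (5.06 ± 2.84) could not be ordered, each being higher in 11 libraries. These 5 circles had a read in all 24 libraries, as did 277 circles of the table. The other 8 averaged 0.976 to 2.82 normalized reads and were at 0 in 4 to 10 libraries each, so a single read more or less moves them. Across members the median of the mean levels was 2.76, against 1.80 in the table.

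**Figure D2:**
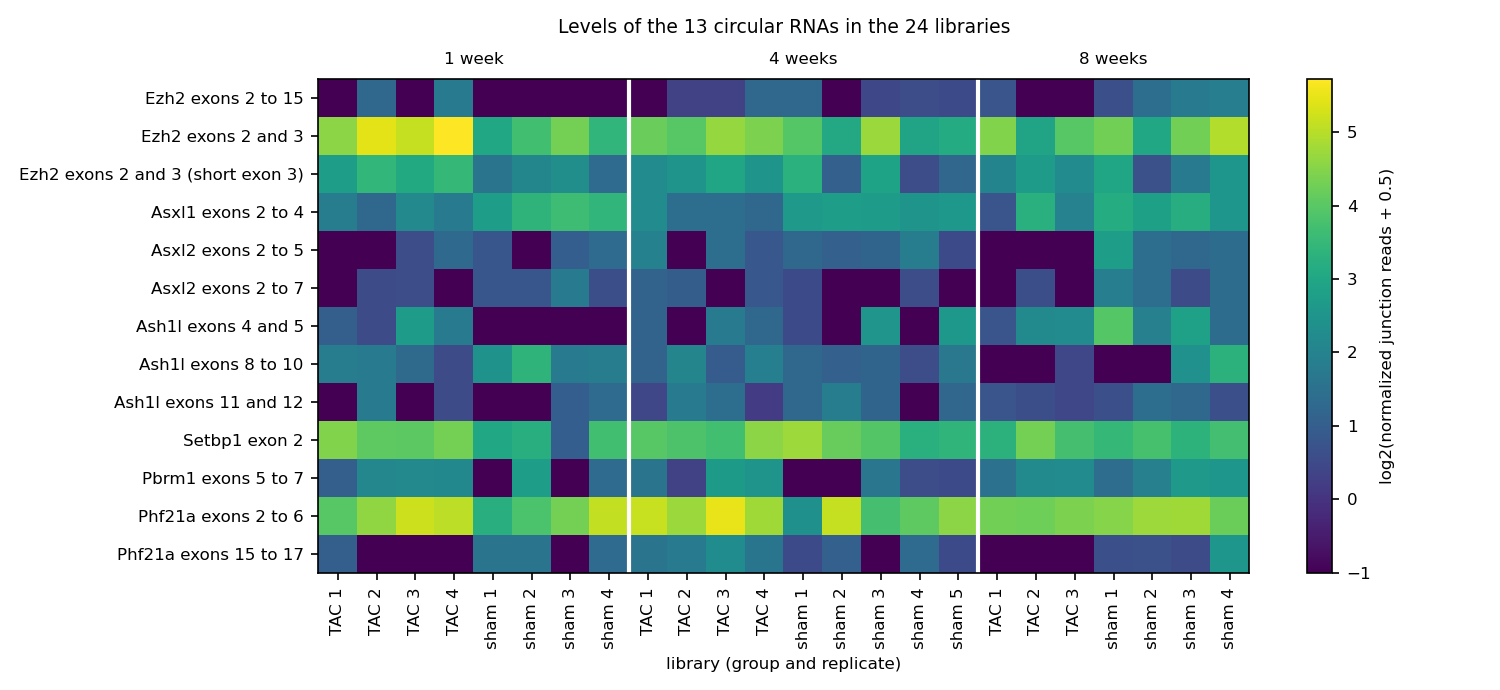
Levels of the 13 circles (rows) in each library (columns, named by group and replicate) as log2(normalized junction reads + 0.5), dark for 0 reads and yellow for the most. The rows of Ezh2 exons 2 and 3, Setbp1 exon 2 and Phf21a exons 2 to 6 are bright in nearly every library, while Ezh2 exons 2 to 15 is at 0 in 10 of 24.

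Ezh2, the Polycomb methyltransferase, gave 3 circles that all begin at its exon 2 on the minus strand of chromosome 6. The abundant circle joins exon 3 back to exon 2 (47576536 to 47577667, 253 nt spliced). The short form uses a donor 27 bases earlier in exon 3 (47576563 to 47577667, 226 nt), and the long circle runs to exon 15 (47540677 to 47577667, 1843 nt) of 20 exons. The coding part of the abundant circle is shown because it carries the difference between the 2 forms: it starts at the Ezh2 start codon, and the capitals mark the 27 bases, 9 codons, that the short form leaves out.
Ezh2 coding bases of exons 2 and 3: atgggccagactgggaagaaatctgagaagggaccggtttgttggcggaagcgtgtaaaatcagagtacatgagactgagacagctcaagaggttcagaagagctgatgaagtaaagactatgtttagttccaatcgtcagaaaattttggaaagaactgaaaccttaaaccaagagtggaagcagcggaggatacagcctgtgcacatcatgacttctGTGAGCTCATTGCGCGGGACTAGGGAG
Read from its start codon round the circle, the abundant form has 92 codons before a stop, of which 82 come before the join, and the short form has 83, of which 73 come before it. Translation was not measured.

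At 1 week Ezh2 exons 2 and 3 had 23.1, 43.1, 34.9 and 52.5 normalized reads in the 4 TAC libraries, against 7.54, 12.5, 19.5 and 10.3 in the 4 sham libraries. Every TAC library lay above every sham library, the lowest TAC value next to a highest sham value of 19.5. The means were 38.4 ± 12.5 in TAC and 12.5 ± 5.13 in sham (SD, n = 4 each), 3.08 times as high in TAC, with a log2 difference of 1.60 ± 0.39 (SE). It was one of 2 members called at 1 week by limma at an adjusted p of 0.05 over the table, where 25 of 1717 circles were called (1.46%), and since that difference helped to choose the host nothing is read from the call. Without TAC replicate 2 or TAC replicate 4 it was no longer called, at log2 differences of 1.53 and 1.44.

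At the 2 later times the groups overlapped. At 4 weeks the circle had 17.8, 15.4, 24.7 and 20.6 normalized reads in TAC, against 14.95, 7.86, 26.0, 7.13 and 8.29 in sham, with the highest value in a sham library. The 8-week values were 21.6, 7.15 and 15.4 in TAC, against 19.2, 7.70, 19.3 and 30.8 in sham, and the groups overlapped fully. The log2 differences were 0.75 ± 0.37 at 4 weeks and -0.35 ± 0.42 at 8 weeks (SE). Ezh2 was not known to have been chosen by its values at 4 or 8 weeks, though these libraries may have served. Between 8 and 4 weeks the circle did not pass in TAC (log2 difference -0.51, limma adjusted p = 0.997) or in sham (0.59, limma adjusted p = 0.822).

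The short form was also higher in TAC at 1 week, at lower values. It then had 6.15, 10.5, 7.99 and 10.7 normalized reads in TAC, against 2.51, 3.74, 4.51 and 2.07 in sham, again with no overlap. Its log2 difference was 1.35 ± 0.61 (SE) and was not called. At 4 and 8 weeks the groups overlapped, at 0.73 ± 0.57 and 0.35 ± 0.65 (SE), the 8-week sign being opposite to that of the abundant form. It made up 19.1 ± 1.74% of the exon 2 and 3 reads of a library in TAC and 20.9 ± 3.83% in sham at 1 week (SD, n = 4 each), 21.7 ± 2.64% in TAC (n = 4) and 21.4 ± 10.0% in sham (n = 5) at 4 weeks, and 27.4 ± 16.7% in TAC (n = 3) and 17.1 ± 7.35% in sham (n = 4) at 8 weeks. In all, 126 of 606 reads (20.8%) used the earlier donor, and the share spanned 12.5 to 46.2% over the 24 libraries. The largest share came from 1 TAC library at 8 weeks with 6 reads of the short form and 7 of the other.

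The long Ezh2 circle was scarce, with 5 reads in the 4 TAC libraries, all from replicates 2 and 4, and 0 in the 4 sham libraries at 1 week. At 4 weeks it had 5 reads in each group. At 8 weeks it had 1 read in TAC and 9 in sham.

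**Figure D3:**
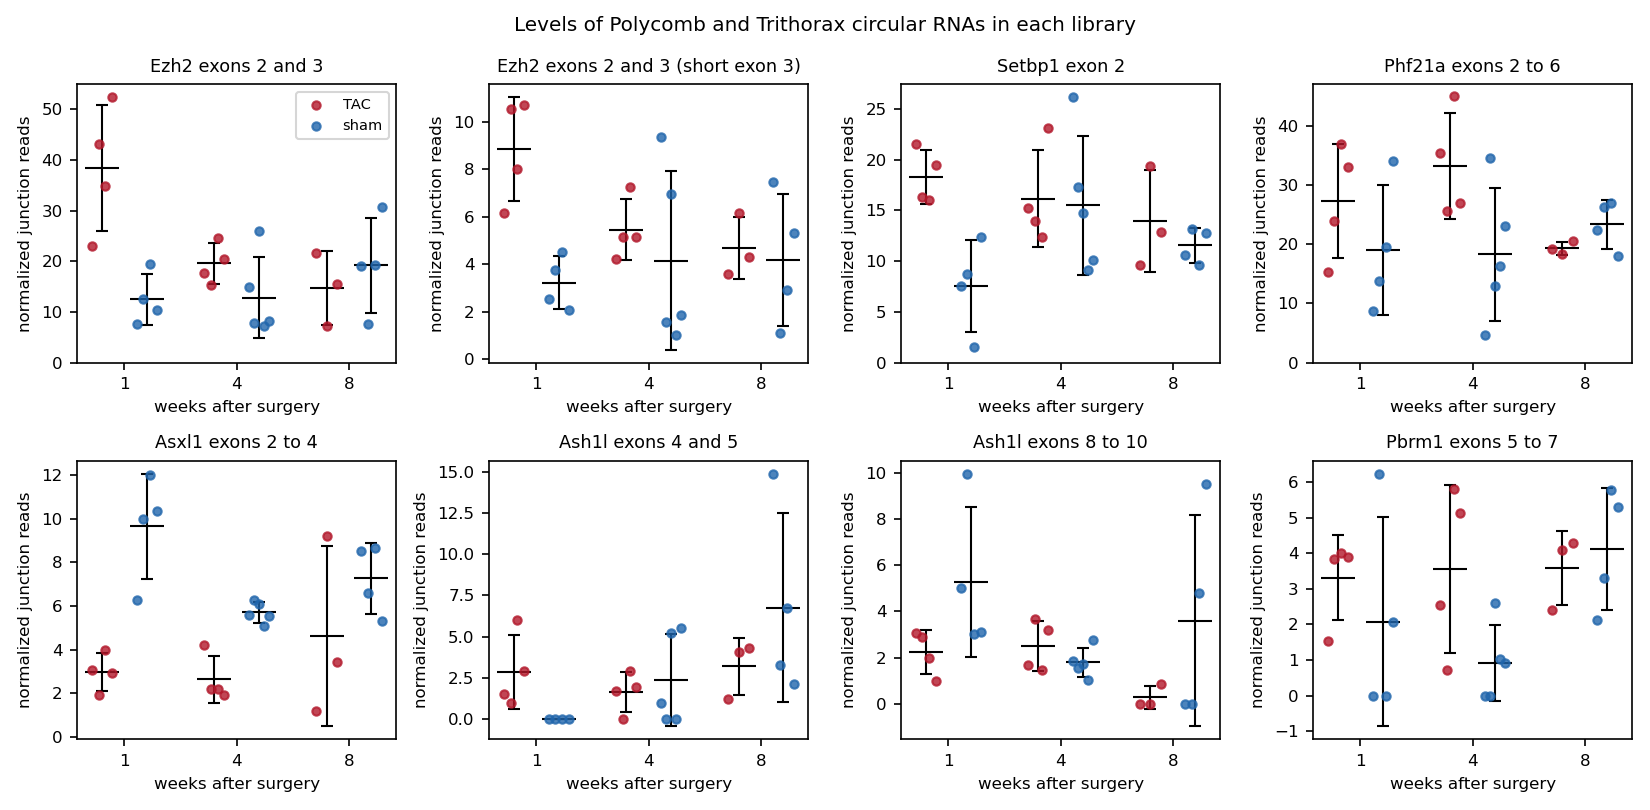
Normalized junction reads (y axis) of 8 circles at 1, 4 and 8 weeks after surgery (x axis), with 1 point per library, TAC in red at the left and sham in blue at the right of each time, and bars for the mean ± SD. Both Ezh2 forms and Setbp1 exon 2 are higher in all 4 TAC libraries than in all 4 sham libraries at 1 week, and Asxl1 is lower in TAC at 1 and 4 weeks without overlap.

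Asxl1 exons 2 to 4 (chromosome 2, 153352189 to 153357178, plus strand) make a circle of 195 nt, all coding and a multiple of 3. Its whole sequence is shown as the shortest of the 13, with the first base after the join at its start.
Asxl1 circle: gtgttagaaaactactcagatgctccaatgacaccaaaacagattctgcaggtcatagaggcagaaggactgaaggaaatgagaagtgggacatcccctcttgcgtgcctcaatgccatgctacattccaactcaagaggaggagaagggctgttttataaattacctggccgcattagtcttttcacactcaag
At 1 week it had 3.08, 1.92, 3.99 and 2.92 normalized reads in TAC, against 6.28, 9.98, 12.02 and 10.3 in sham. At 4 weeks it had 4.23, 2.20, 2.18 and 1.93 in TAC, against 5.61, 6.28, 6.07, 5.09 and 5.53 in sham. At both times every TAC library lay below every sham library. At 8 weeks the values were 1.20, 9.20 and 3.43 in TAC, against 8.51, 6.60, 8.66 and 5.30 in sham, and TAC replicate 2 held the highest value of that time. The log2 differences were -1.55 ± 0.58, -1.04 ± 0.55 and -0.93 ± 0.63 at 1, 4 and 8 weeks (SE), none of them called. In all, 10 of 11 TAC libraries lay below the sham mean of their time. Without TAC replicate 1 the 8-week difference was -0.31, and without TAC replicate 2 it was -1.56.

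Circles of the cardiomyocyte list also summed to less in TAC. The 9 circles of its 5 hosts with a row (Ttn, Ryr2, Cacna1c, Slc8a1 and Corin, of 17 genes looked for) summed to 23.8 ± 3.73 normalized reads in TAC and 67.5 ± 40.2 in sham at 1 week, 26.6 ± 9.24 in TAC and 60.9 ± 27.2 in sham at 4 weeks, and 44.1 ± 2.93 in TAC and 87.2 ± 28.9 in sham at 8 weeks. The sums spanned 19.5 to 27.7 in TAC and 34.1 to 125 in sham at 1 week, 14.5 to 36.6 in TAC and 39.6 to 109 in sham at 4 weeks, and 41.2 to 47.0 in TAC and 53.9 to 120 in sham at 8 weeks. The groups did not overlap at any of the 3 times. Myh6, Tnnt2 and 10 other genes of that list had no circle in the table. The circles most like Asxl1 over the 24 libraries, by Pearson correlation of log2 values among 271 circles with a mean of at least 5 reads, included Ttn exons 85 to 118 (0.64) and Ttn exons 84 to 118 (0.62). The part of the cardiomyocyte sum in the Asxl1 values was not tested.

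Asxl2, the paralogue, had 2 scarce circles on the plus strand of chromosome 12 from exon 2 to exon 5 (3442474 to 3457209, 343 nt) and to exon 7 (3442474 to 3474613, 583 nt). At 8 weeks the circle of exons 2 to 5 had 0 reads in all 3 TAC libraries, against 6, 2, 2 and 2 reads in the sham libraries, or 6.38, 2.20, 1.93 and 2.12 normalized reads. A count of 0 was taken to allow up to 3 reads over the group. Set against the observed sham mean, that limit put the circle at least 3.08-fold lower in TAC. This covers counting error in the TAC count of 0 only, not in the 12 sham reads. The limit was 2.03-fold without sham replicate 1, which held 6 of the 12 reads, and 2.05-fold or 1.90-fold without TAC replicate 2 or 3. At 1 week it had 3 reads in TAC and 4 in sham, and at 4 weeks 9 in each. The circle of exons 2 to 7 had 2 reads in TAC and 5 in sham at 1 week, 6 in TAC and 2 in sham at 4 weeks, and 1 in TAC and 8 in sham at 8 weeks. At 1 week its TAC libraries stayed below all sham libraries only through the scaling. TAC replicates 2 and 3 had 1 read each, as did sham replicates 1, 2 and 4.

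Setbp1 gave 1 circle, made of exon 2 alone (chromosome 18, 79086551 to 79087180, minus strand, 630 nt), which holds the start codon and 165 untranslated bases. From that codon, 155 codons lead to the join and 156 to a stop. At 1 week it had 21.5, 16.3, 15.97 and 19.5 normalized reads in TAC, against 7.54, 8.73, 1.503 and 12.4 in sham. All TAC libraries were above all sham libraries, with means of 18.3 ± 2.66 in TAC and 7.54 ± 4.53 in sham (SD, n = 4 each), and sham replicate 3 had a single read. The log2 difference was 1.497 ± 0.43 (SE), and the circle was the second member called at 1 week.

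The Setbp1 call rested on single libraries. It was kept when sham replicate 1 or 4 was left out and lost in the other 6 of 8 such fits, with log2 differences of 1.66 without sham replicate 2, 0.92 without sham replicate 3, and 1.42, 1.55, 1.56 and 1.47 without TAC replicates 1, 2, 3 and 4. At 4 weeks it had 15.2, 13.9, 12.3 and 23.1 normalized reads in TAC, against 26.2, 17.3, 14.8, 9.16 and 10.1 in sham. The 8-week values were 9.58, 19.4 and 12.9 in TAC, against 10.6, 13.2, 9.62 and 12.7 in sham. Both later times overlapped, with log2 differences of 0.12 ± 0.41 and 0.22 ± 0.46 (SE). Between 8 and 4 weeks it did not pass in TAC (-0.22, limma adjusted p = 0.997) or in sham (-0.32, limma adjusted p = 0.925).

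Cell cycle circles were high in the same 1-week TAC libraries as Ezh2 and Setbp1. The 4 circles of Bub1b and Cdkn3, the 2 hosts with a row of 24 cell cycle genes looked for, summed to 28.5 ± 10.3 normalized reads in TAC (20.96 to 43.1) and 6.92 ± 3.07 in sham (4.14 to 11.3) at 1 week. At 4 weeks the sums were 6.77 ± 3.495 in TAC (1.93 to 10.3) and 10.6 ± 3.24 in sham (6.45 to 14.1). At 8 weeks they were 12.8 ± 3.12 in TAC (10.2 to 16.3) and 6.26 ± 1.70 in sham (4.40 to 8.49). Mki67, Top2a and 20 other genes of that list had no circle in the table. Their part in the Ezh2 and Setbp1 values was not tested.

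Ash1l, the Trithorax methyltransferase, had 3 separate circles on the plus strand of chromosome 3, none sharing an exon: exons 4 and 5 (89001773 to 89007877, 838 nt), exons 8 to 10 (89033259 to 89035481, 229 nt) and exons 11 and 12 (89043119 to 89043643, 354 nt). The intron of 7637 bp between exons 10 and 11 lies after the second and before the third.

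The circle of exons 4 and 5 was at 0 in all 4 sham libraries at 1 week and had 1.54, 0.959, 5.99 and 2.92 normalized reads, 11 reads in all, in the 4 TAC libraries. By the limit of 3 reads over the group, set against the observed TAC mean, it was at least 3.02-fold higher in TAC. Without TAC replicate 3 it was at least 1.91-fold higher. At 4 weeks it had 1.69, 0, 2.91 and 1.93 in TAC, against 0.934, 0, 5.21, 0 and 5.53 in sham. At 8 weeks it had 1.20, 4.09 and 4.29 in TAC, against 14.9, 3.30, 6.74 and 2.12 in sham, and sham replicate 1 was the highest library of the table for this circle. Within sham it had 26 reads at 8 weeks and 0 at 1 week. By the same limit, set against the observed 8-week mean, it was at least 7.16-fold higher at 8 weeks. Without sham replicate 1 of 8 weeks it was at least 4.29-fold higher. The log2 difference was 3.53 ± 0.78 (SE). That was 1 of 2 circles called between these times (0.116%), and without sham replicate 1 or 3 of 8 weeks it was not called (3.06 and 3.42). This comparison shares its 1-week sham libraries with the TAC difference at 1 week, and the host may have been chosen with it known, so no test is given.

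The circle of exons 8 to 10 ran the other way at 1 week, with 3.08, 2.88, 2.00 and 0.973 normalized reads in TAC, against 5.02, 9.98, 3.01 and 3.10 in sham. The groups overlapped by a narrow margin. At 4 weeks the circle had 14 reads in TAC and 9 in sham. The groups then overlapped, with a log2 difference of 0.36 ± 0.71 (SE). At 8 weeks it had 1 read in 3 TAC libraries and 14 reads in sham, which came from 2 sham libraries. The circle of exons 11 and 12 had 4 reads in TAC and 3 in sham at 1 week, 9 in TAC and 8 in sham at 4 weeks, and 3 in TAC and 6 in sham at 8 weeks, and the groups overlapped at all 3 times.

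Pbrm1 exons 5 to 7 (chromosome 14, 31030844 to 31036059, plus strand, 409 nt) belong to the bromodomain subunit of the remodelling complex. At 1 week the circle had 1.54, 3.83, 3.99 and 3.89 normalized reads in TAC, against 0, 6.23, 0 and 2.07 in sham. At 4 weeks it had 2.54, 0.734, 5.81 and 5.14 in TAC, against 0, 0, 2.60, 1.02 and 0.921 in sham. By 8 weeks it measured 2.39, 4.09 and 4.29 in TAC, against 2.13, 3.30, 5.77 and 5.30 in sham. It had a read in all 11 TAC libraries and was at 0 in 4 sham libraries, all of 1 or 4 weeks. The groups overlapped at each time, and the log2 differences were 1.33 ± 0.74, 1.62 ± 0.70 and -0.13 ± 0.79 (SE). Between sham libraries it did not pass at 8 against 4 weeks (1.98 ± 0.70, limma adjusted p = 0.620) or at 8 against 1 week (1.60, limma adjusted p = 0.581). These sham libraries may also have served to choose Pbrm1.

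Phf21a, the histone reader, gave the most abundant circle of the 13 and a scarce one far downstream on the plus strand of chromosome 2. The abundant circle joins exon 6 to exon 2 (92214049 to 92230724, 396 nt) and holds 243 untranslated bases and the start codon. From that codon, 51 codons lead to the join and 70 to a stop. The scarce circle joins exon 17 to exon 15 (92356864 to 92359209, 336 nt), all coding.

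At 4 weeks the abundant circle had 35.5, 25.7, 45.0 and 27.0 normalized reads in TAC, against 4.67, 34.6, 13.02, 16.3 and 23.0 in sham. All 4 TAC values exceeded 4 of the 5 sham values, and sham replicate 2, the shallowest of its group, overlapped them. Sham replicates 1 and 2, with the lowest and highest sham values, are named unlike the other libraries, and the reason is not given. The means were 33.3 ± 8.95 in TAC (SD, n = 4) and 18.3 ± 11.2 in sham (n = 5), with a log2 difference of 1.07 ± 0.34 (SE) that was not called. At 1 week it had 15.4, 23.96, 36.9 and 33.1 in TAC, against 8.79, 13.7, 19.5 and 34.1 in sham. The 8-week values were 19.2, 18.4 and 20.6 in TAC, against 22.4, 26.4, 27.0 and 18.03 in sham. The groups overlapped at both, with log2 differences of 0.60 ± 0.36 and -0.25 ± 0.39 (SE). Between 8 and 1 weeks it did not pass in TAC (-0.41, limma adjusted p = 0.836) or in sham (0.44, limma adjusted p = 0.789). At 4 weeks the fibroblast marker circles summed to 12.7 to 15.4 normalized reads in TAC and 4.71 to 10.1 in sham, and the leukocyte circles averaged 82.2 ± 32.1 in TAC and 136 ± 30.1 in sham (SD). The part of these sums, and of the deeper 4-week TAC libraries, in the 4-week values was not tested.

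The scarce Phf21a circle had 2.54, 2.93, 4.36 and 2.57 normalized reads in TAC at 4 weeks, against 0.934, 1.57, 0, 2.04 and 0.921 in sham, with every TAC library higher. At 8 weeks it had 0 reads in 3 TAC libraries and 1, 1, 1 and 5 reads in the 4 sham libraries. Set against the observed sham mean, the limit of 3 reads put it at least 2.06-fold lower in TAC. The limit fell to 1.02-fold without sham replicate 4, and to 1.27-fold or 1.37-fold without TAC replicate 3 or 2. Counting error in the 8 sham reads is not covered. At 1 week it had 1 read in TAC and 6 in sham.

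**Figure D4:**
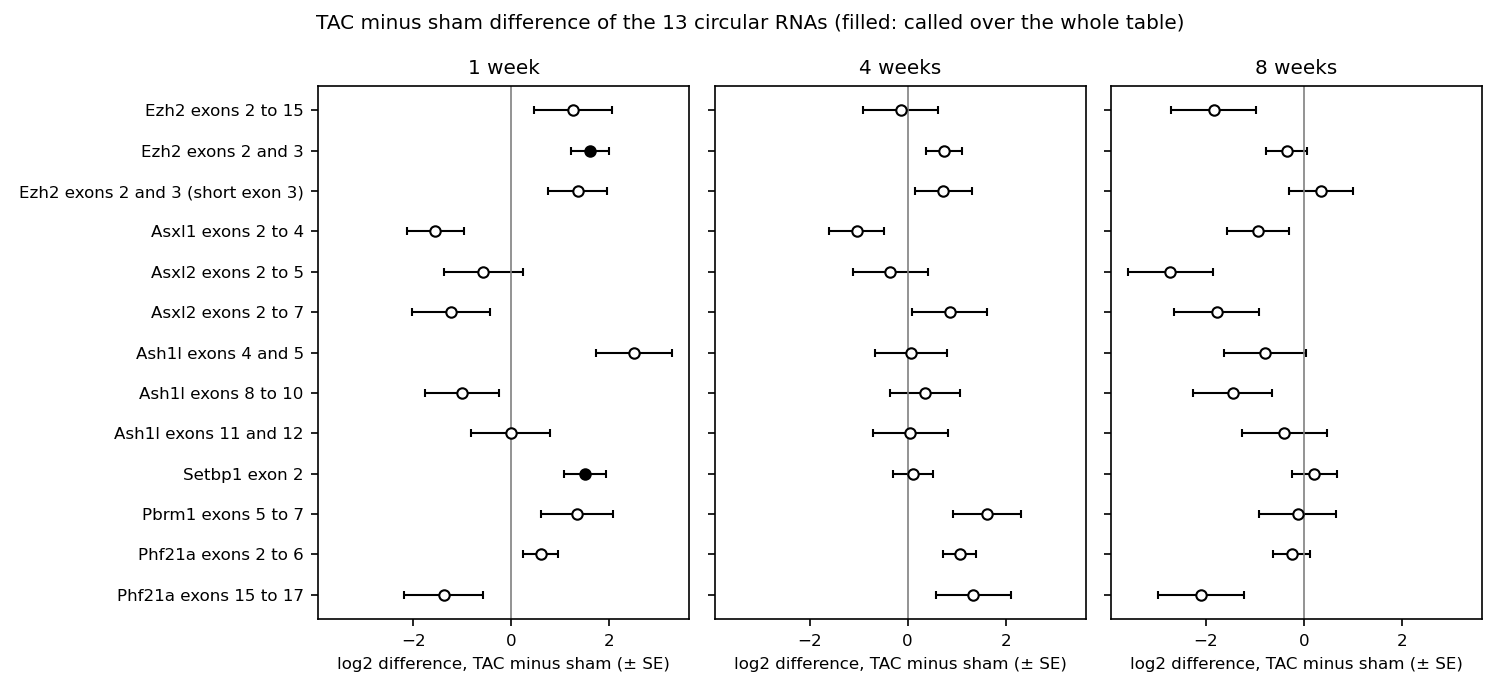
Log2 difference of TAC minus sham (x axis, point ± SE, pseudocount 0.5) for the 13 circles at 1, 4 and 8 weeks, with filled points for circles called over the whole table. Only Ezh2 exons 2 and 3 (1.60) and Setbp1 exon 2 (1.497) at 1 week are filled, and 11 of the 13 points lie left of 0 at 8 weeks.

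Across the 13 members, the signs of TAC minus sham differed between times. At 1 week 7 were positive and 6 negative, with a median log2 difference of 0.60 against 0.04 over the table. At 4 weeks 10 were positive and 3 negative, with a median of 0.36 against 0.12. At 8 weeks 2 were positive and 11 negative, with a median of -0.79 against 0.03. At that time the 3 best-read circles stood at -0.35 (Ezh2 exons 2 and 3), 0.22 (Setbp1) and -0.25 (Phf21a exons 2 to 6).

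Called members numbered 2 at 1 week, 0 at 4 weeks and 0 at 8 weeks by limma. Over the table the calls were 1.46% at 1 week, 0.116% at 4 weeks (2 circles, with 137 at an unadjusted p under 0.05) and 0% at 8 weeks (104 at an unadjusted p under 0.05). A weighted fit on the recovered reads, limma-voom, called 1 member at 1 week (Ezh2 exons 2 and 3), 1 at 4 weeks (Phf21a exons 2 to 6) and 0 at 8 weeks. TAC lay wholly above sham for 4 members at 1 week, against 2.21% of the table, and wholly below for 2, against 3.03%. For 1 of those 2, Asxl2 exons 2 to 7, the separation came from the scaling alone. At 4 weeks the counts were 1 above (2.33% of the table) and 1 below (1.22%). At 8 weeks they were 0 above (3.09%) and 2 below (3.03%). As the hosts were chosen with these differences known, nothing is read from the counts.

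Changes between times within a group were tested where the host was not known to have been chosen by its values at either time. For Asxl1 and Pbrm1 no such time was known, so both were tested at every time. All the hosts tested may still have been chosen by these libraries, so none of the tests is free of that choice. Ash1l was left out, since its call between 8 and 1 weeks in sham may have served to choose it. In sham, 14 tests of 10 circles gave limma adjusted p between 0.581 and 0.973, with 0 called and 2 at an unadjusted p under 0.05, both for Pbrm1. In TAC, 14 tests of 10 circles gave limma adjusted p between 0.836 and 0.997, with 0 called and 0 at an unadjusted p under 0.05. Of all 1717 circles, 0.116% were called between 8 and 1 weeks in sham, 0% between 4 and 1 weeks and between 8 and 4 weeks in sham, and 0% in each of the 3 comparisons in TAC. With 3 to 5 libraries a group and few reads per circle, a p above the threshold does not show equal levels.

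Among 271 or 272 circles with a mean of at least 5 reads, the one most like Ezh2 exons 2 and 3 over the 24 libraries was its own short form, with a Pearson correlation of 0.78, followed by Psd3 exons 2 to 5 (0.75) and Nsd2 exons 1 to 2 (0.70). Setbp1 was nearest to Tns3 exons 18 to 20 (0.80), Prr14l exons 7 to 9 (0.67) and Pde4a exons 3 to 13 (0.65). Phf21a exons 2 to 6 was nearest to Rabep1 exons 2 to 3 (0.58). Pbrm1 was nearest to Ppp1r13b exons 2 to 4 (0.73). The nearest circles of Ash1l exons 4 and 5 and of Asxl2 exons 2 to 5 reached 0.57 and 0.59. At so few reads these correlations of Pbrm1, Ash1l and Asxl2 are no finding. All the correlations describe libraries that share groups and depth.

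Other Polycomb and Trithorax genes were taken from a textbook list, drawn up with earlier results of these data known. Eed and Nsd2 were picked from it by the size of their differences, so their adjusted p is not free of that choice. Of 93 listed genes looked for, 18 had 24 circles in the table. By limma 0 of these 24 circles were called in TAC against sham at 1, 4 or 8 weeks. Their signs were mixed, with 10, 13 and 11 positive and 14, 11 and 13 negative, and medians of -0.10, 0.38 and -0.03. Only the circles of Arid1a, a SWI/SNF subunit, Nsd2, a histone H3 methyltransferase, Eed, the partner of Ezh2 in its complex, and Kmt2a, a Trithorax methyltransferase, reached a mean of 5 reads. Eed exons 9 to 11 measured 9.93 ± 7.13 normalized reads in TAC and 3.42 ± 2.53 in sham at 1 week (SD, n = 4 each), a log2 difference of 1.46 ± 0.56 (SE) that did not pass with limma (adjusted p = 0.176). Nsd2 exons 1 to 2 measured 6.83 ± 3.74 in TAC (n = 4) and 2.39 ± 0.956 in sham (n = 5) at 4 weeks, a log2 difference of 1.25 that did not pass with limma (adjusted p = 0.534). At 1 week Nsd2 measured 11.7 ± 6.53 in TAC and 5.13 ± 2.545 in sham (n = 4 each). That log2 difference of 1.05 did not pass with limma either (adjusted p = 0.464). At 8 weeks it measured 4.45 ± 3.14 in TAC (n = 3) and 7.22 ± 2.31 in sham (n = 4), the opposite sign, at -0.88. Eed was at 0.46 and 0.90 at 4 and 8 weeks, Kmt2a exons 19 to 20 at -0.05, 0.54 and 0.59 at 1, 4 and 8 weeks, and Arid1a exons 2 to 4 at -0.22, -0.73 and -0.11 (log2 differences, TAC minus sham).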

How the data were processed

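The authors' table gives 1 normalized signal per circular RNA and library; per the submitters' processing notes, STAR, Trimmomatic, FastQC and mm10 were used, while caller settings and scaling are not stated there. With 0.01 taken off, each deposited signal value equalled whole reads times 1 factor per library (100% of values within 0.001 of a read). Hosts and exons were matched to GENCODE M21 of the same build, with both ends at exon edges for 1666 junctions, 1 end for 36 and none for 15. The planned count test was replaced by limma 3.58.1 (R 4.3.3) with a trend, on log2(normalized reads + 0.5), over 24 libraries in 6 groups without covariate. Adjusted p (Benjamini-Hochberg) covers all 1717 circles, with calls under 0.05. Folds on this scale understate scarce circles. On simulated counts the fit was required to call most of the changed circles with a mean of at least 5 reads. No such requirement was set for scarcer circles. Limits for 0 reads set 3 reads over that group against the observed mean of the other, and cover counting error in the count of 0 only. The members and gene lists were chosen with earlier results of these data known. All 13 members were described; other circles are named by the likeness rule (the 3 highest correlations, 1 of which is not reported here) or the list of related genes. Other scalings, pseudocounts, a filter, a replicate block, limma-voom (added after seeing the data) and libraries left out were tried.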

Additional observations from a re-analysis of the deposited data

Results flagged for a closer look

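Of 63 groups of 4 or 5 libraries tested, 6 held a library far from the rest of its group. The threshold gives about 1 in 20 by chance for continuous values only. These values are few reads with many ties, so the count of 6 cannot be called an excess. Asxl1 exons 2 to 4 had 4.23 normalized reads in TAC replicate 1 at 4 weeks, against 1.93 to 2.20 in the others. Asxl2 exons 2 to 5 had 6.38 in sham replicate 1 at 8 weeks, against 1.93 to 2.20. Asxl2 exons 2 to 7 had 3.005 in sham replicate 3 at 1 week, against 1.03 to 1.26, a matter of 2 reads. Pbrm1 exons 5 to 7 had 1.54 in TAC replicate 1 at 1 week, 1 read, against 3.83 to 3.99. Phf21a exons 15 to 17 had 1.54 in TAC replicate 1 at 1 week, 1 read, against 0 in the others, and 5.30 in sham replicate 4 at 8 weeks, against 0.962 to 1.10.

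For 3 circles all TAC libraries lay on one side of the sham mean at one time and on the other side at another. The difference between times was not tested. Ash1l exons 4 and 5 had log2 differences of 2.51 at 1 week and -0.79 at 8 weeks, 3.30 apart. Phf21a exons 2 to 6 had 1.07 at 4 weeks and -0.25 at 8 weeks, 1.32 apart. Phf21a exons 15 to 17 had 1.34 at 4 weeks, against -1.38 at 1 week, 2.71 apart, and against -2.10 at 8 weeks, 3.44 apart.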

How the results depend on the processing

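Of 721 recomputed log2 differences of members, 32 changed sign, 26 of them with a library left out, and all of these belonged to 12 differences of at most 0.379 in size. A pseudocount of 0.1 enlarged 9 differences of scarce circles, at 1 and 8 weeks, by more than the spread between libraries. At 1 week the table had 25 calls, against 11 with limma-voom and 4 with only the compared groups, where the members called fell to 1 (Ezh2 exons 2 and 3), as with a pseudocount of 0.1; with libraries left out calls ran from 6 to 32, and members from 0 to 2. At 4 weeks the 2 calls became 6 with TMM or a pseudocount of 1, 0 with a pseudocount of 0.1, 7 with limma-voom and 14 with only the compared groups, where 1 member was called (Phf21a exons 2 to 6), as with limma-voom; with libraries left out they ran from 0 to 4. At 8 weeks 0 were called throughout. Between 8 and 1 weeks in sham the 2 calls became 1 with limma-voom and 0, with 0 members, with only the compared groups; with libraries left out 0 to 4, and 0 to 1 members. Between 4 and 1 weeks calls ran from 0 to 4 in sham and 0 to 1 in TAC with libraries left out, and were 1 in TAC with a pseudocount of 0.1 or limma-voom. The cause was not tested. With libraries left out, the Pbrm1 difference in sham between 4 and 1 weeks ran from -0.89 to 0.36 (positive without sham replicate 2 of 1 week, -0.38 with all) and the Setbp1 difference in TAC between 8 and 4 weeks from -0.48 to 0.0099 (positive without TAC replicate 1 of 8 weeks, -0.22 with all). TMM moved the table's median between 8 and 4 weeks in TAC from -0.09 to -0.19. Libraries that share a replicate number had correlations of -0.077 to 0.135. At 4 and 8 weeks the replicate numbers of the sham libraries do not follow the numbers in their names, while those of TAC do. A pairing by name was not checked. A replicate block gave 25, 4 and 0 calls at 1, 4 and 8 weeks and changed no member call. The planned count test on reads was not run, because the values are normalized. A filter at a mean of 2 reads kept 780 circles and 8 members. Depth limits the 8 scarce members most.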
